A study of Homo sapiens with 6 samples.

Results

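The genes of RNA interference and microRNA maturation were followed in A549 cells, a human lung adenocarcinoma line, after knockdown of GSE1, whose protein associates with the CoREST co-repressor. They comprised 10 genes, the argonautes AGO1, AGO2, AGO3 and AGO4, the nuclease genes DROSHA and DICER1, their RNA-binding partners DGCR8 and TARBP2, the export receptor gene XPO5 and the GW182 protein gene TNRC6A. They were found by their symbols in the deposited table, where each had 1 of the 60612 rows. The 3 siGSE1 libraries came from cells transfected with siRNA against GSE1 and the 3 control libraries from cells transfected with a negative control siRNA, each lysed 48 hours later. Both groups therefore carried siRNA, and none of the 6 libraries came from untransfected cells. The labels number the replicates and leave unsaid whether each was its own culture, so the p-values here measure library-to-library spread only, and that spread may be technical. The sources used here do not give the siRNA sequences.

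MicroRNA genes are transcribed into long primary transcripts, from which the Microprocessor, made of the nuclease DROSHA and its partner DGCR8, cuts hairpins in the nucleus. Exportin 5, the product of XPO5, carries the hairpins to the cytoplasm, where DICER1 with TARBP2 trims them to short duplexes. An argonaute protein keeps 1 strand and uses it to find target mRNAs. GW182 proteins such as TNRC6A bind argonautes and recruit the deadenylases that shorten the poly(A) tails of the targets. A transfected siRNA enters this pathway at the argonaute step, and AGO2 is the human argonaute known for slicing the target.

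Library totals ran from 14475992 to 20755506 counts. Control replicate 2 stood apart from the other controls, with a chi-square per degree of freedom of 9.20 and 8.23 against them, compared with 4.34 between those controls and 2.44 to 3.17 among the siGSE1 pairs. The targeted GSE1 had 7.37, 8.06 and 7.92 FPKM (counts per kilobase of exon, scaled to the library's summed counts) in the control libraries and 3.84, 4.06 and 3.73 in the siGSE1 libraries, a log2 fold change of -1.03. Of 6 epithelial markers, 4 (KRT8, KRT18, KRT19 and CDH1) were above 10 FPKM in every library, while EPCAM had 0.45 to 1.14 and CLDN4 2.29 to 4.35. All 6 endothelial markers, 5 of 6 fibroblast markers and 5 of 6 leukocyte markers were below 1 FPKM in every library. The exceptions were COL1A1, at 0.99 to 1.56 FPKM, and CD14, at 3.14 to 5.67.

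After GSE1 knockdown DROSHA mRNA rose by 12.9%, XPO5 fell by 12.2% and AGO4 fell by 23.3%, while the other 7 mRNAs of the RNA interference machinery did not pass the test. These 3 calls lay near the threshold, and each was lost in 9 to 11 of 15 alternative analyses with its direction kept. In whole-culture RNA, a lower level in every cell and a lower share of cells with the transcript cannot be told apart. All 10 passed the filter on low counts, with 142 to 3193 counts in a library, and were tested with edgeR's quasi-likelihood test over 15937 genes, with Benjamini-Hochberg adjustment over all of them and a threshold of 0.05. The 3 of 10 that changed make 30% of the genes, where 19.9% of all genes tested changed, 10.9% higher and 9.02% lower in siGSE1 cells. FPKM of the 2 groups did not overlap for the same 3 genes, again 30%, where 36.1% of all genes tested had groups that did not overlap. The median absolute log2 fold change was 0.087 over the 10 genes and 0.17 over all genes tested, and the signed medians were -0.0052 and 0.0044. The sign of the median over the 10 genes was kept in only 6 of 15 alternatives, and it was 0.057 with TPM scaling (FPKM brought to a fixed sum per library).

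**Figure D1:**
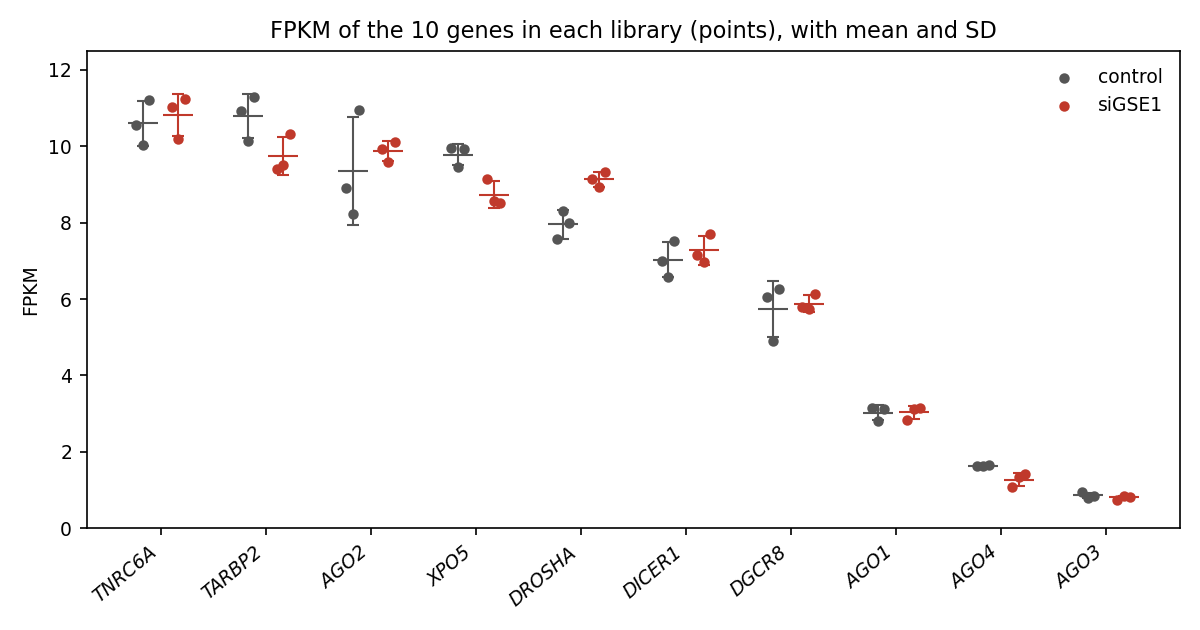
FPKM (vertical axis, linear from 0) of the 10 genes, ordered by their mean over the 6 libraries. Points are libraries, horizontal marks the group means and bars the SD (n = 3 each). The control and siGSE1 points are apart for XPO5, DROSHA and AGO4 and overlap for the other 7 genes.

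The 10 mRNAs spanned a 12.6-fold range of levels in control cells, from 0.86 FPKM for AGO3 to 10.8 for TARBP2. By the mean over the 6 libraries the order was TNRC6A, TARBP2, AGO2, XPO5, DROSHA, DICER1, DGCR8, AGO1, AGO4 and AGO3. The library values of each of the first 5 overlapped with those of the next in that order, so these ranges do not rank neighbours among the first 6. Compared within each library, DROSHA lay above DICER1 in all 6, at 1.07 to 1.28 times its FPKM. DICER1, DGCR8, AGO1 and AGO4 were each apart from the gene that follows. By level, TNRC6A in control cells lay above 75.5% of the genes tested, DICER1 above 65.9% and AGO3 above 22.7%.

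The 95% intervals of the fold changes show the range of change that these libraries allow for the 7 genes that missed the threshold. The intervals of TNRC6A, DICER1, AGO1, AGO2 and DGCR8 all included 0 and lay between log2 fold changes of -0.17 and 0.22. TARBP2, at -0.17 (95% interval -0.32 to -0.02, edgeR adjusted p = 0.105), came closest to the threshold among the genes that missed it. AGO3, at -0.12, had the widest interval of the 7, from -0.33 to 0.10.

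**Figure D2:**
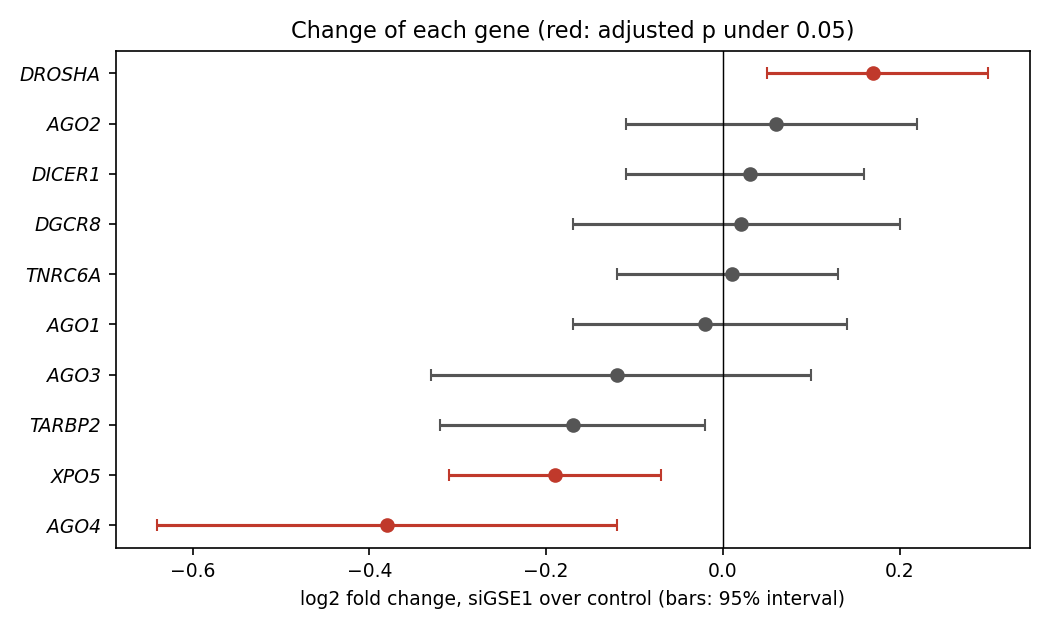
Log2 fold change (horizontal axis, siGSE1 over control) of the 10 genes, with 95% intervals of the edgeR model. DROSHA (0.17), XPO5 (-0.19) and AGO4 (-0.38) are drawn in red because their adjusted p was under 0.05, and the interval of TARBP2 ends at -0.02.

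DROSHA, the ribonuclease III of the Microprocessor, rose by 12.9%. It lies on chromosome 5 (31400497 to 31532196, minus strand, hg38, ENSG00000113360). Control libraries 1, 2 and 3 had 7.56, 8.31 and 8.00 FPKM, and siGSE1 libraries 1, 2 and 3 had 9.14, 8.94 and 9.32. Every siGSE1 library lay above every control library. The means were 7.96 ± 0.38 and 9.13 ± 0.19 FPKM (SD, n = 3 each), a change of 0.17 on the log2 scale (SE 0.06, adjusted p = 0.0481 by edgeR). The direction was the same in all 15 alternatives, but the call held in 4 and was lost in 11. Leaving out control replicate 1 or 3 gave an adjusted p of 0.146 and 0.106, leaving out siGSE1 replicate 1, 2 or 3 gave 0.134, 0.0920 and 0.158, and leaving out control replicate 2 gave 0.0168.

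The promoter letters of the 3 genes that changed are shown because the series title names KLF6, which rose 2.08-fold here (log2 fold change 1.06) and belongs to a family of zinc finger factors that bind GC boxes and CACCC elements. The letters GGGCGG (the GC box, or CCGCCC on the other strand) occur within 250 bases before the start of 42.6% of 35116 RefSeq promoters (GRCh38.p14), and CACCC or GGGTG in 54.7%. Of 15 promoter entries for 9 of the 10 genes, 10 hold the first and 8 the second. These counts were not tested against all promoters, nor matched for GC content. The GC content of the 250 bases was 62.0% for DROSHA, 72.4% for XPO5 and 66.4% for AGO4, against a median of 58.0% over all promoters. A match describes the letters only and no binding was measured. The DROSHA window holds 1 GC box and 1 CACCC, in capitals below, and the stretch shown is the part of that window before the deposited gene span (chr5:31532197-31532343, minus strand).
DROSHA: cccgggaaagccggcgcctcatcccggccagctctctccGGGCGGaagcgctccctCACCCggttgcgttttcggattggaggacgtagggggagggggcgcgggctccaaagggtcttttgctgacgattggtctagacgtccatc

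DGCR8, the RNA-binding subunit that holds the hairpin for DROSHA, did not pass the test. It lies on chromosome 22 (20080232 to 20111877, plus strand, hg38, ENSG00000128191). It had 6.05, 4.89 and 6.27 FPKM in control libraries 1, 2 and 3 and 5.78, 5.74 and 6.13 in the siGSE1 libraries. Control replicate 2 was the lowest of the 6. Replicates 1 and 2 of siGSE1 lay between it and the other controls, and replicate 3 lay between those controls. The log2 fold change was 0.02 (SE 0.09, 95% interval -0.17 to 0.20, edgeR adjusted p = 0.923), and without control replicate 2 it was -0.09 (adjusted p = 0.437). DGCR8 mRNA is itself a known substrate of the Microprocessor, which cuts hairpins within it. RefSeq places 2 microRNA genes there, MIR3618 in an annotated untranslated exon and MIR1306 in coding sequence of GENCODE release 29, and both were listed at 0 counts in every library. How the counting assigned reads of bases shared with DGCR8 was not stated, so these 0 counts do not show absence. The mature products of MIR3618 and MIR1306 are shown with the seed, bases 2 to 8 and the part that pairs with targets, in capitals.
hsa-miR-3618: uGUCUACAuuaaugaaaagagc
hsa-miR-1306-5p: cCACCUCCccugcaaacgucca
hsa-miR-1306-3p: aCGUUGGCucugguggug

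XPO5, the export receptor of pre-microRNA hairpins, fell by 12.2%. It lies on chromosome 6 (43522334 to 43576038, minus strand, hg38, ENSG00000124571). Control libraries 1, 2 and 3 had 9.95, 9.46 and 9.93 FPKM, and siGSE1 libraries 1, 2 and 3 had 9.14, 8.56 and 8.51. All 3 siGSE1 values lay below all 3 control values. The means were 9.78 ± 0.28 and 8.74 ± 0.35 FPKM (SD, n = 3 each), a change of -0.19 on the log2 scale (SE 0.06, adjusted p = 0.0305 by edgeR).

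The call of XPO5 held in 6 of 15 alternatives, and its direction in all 15. The adjusted p was 0.0926 without control replicate 1, 0.0511 without control replicate 3, 0.134 without siGSE1 replicate 2, 0.124 without siGSE1 replicate 3 and 0.132 with TPM scaling. The gene span of POLR1C, a subunit of RNA polymerases I and III on the opposite strand, overlaps that of XPO5, and 4.08% of the exonic bases of XPO5 in GENCODE release 29 are also exonic in POLR1C. POLR1C itself fell by 0.37 on the log2 scale, from 5.43 ± 0.27 to 4.29 ± 0.29 FPKM (SD, n = 3 each, edgeR adjusted p = 0.00533). Whether the counting used strand was not stated in the labels, so reads of the shared bases cannot be told apart, and their part in the XPO5 value was not tested. The 250 bases before the RefSeq start of XPO5 (chr6:43576039-43576288, minus strand) hold 2 GC boxes that overlap, in capitals, and no CACCC.
XPO5: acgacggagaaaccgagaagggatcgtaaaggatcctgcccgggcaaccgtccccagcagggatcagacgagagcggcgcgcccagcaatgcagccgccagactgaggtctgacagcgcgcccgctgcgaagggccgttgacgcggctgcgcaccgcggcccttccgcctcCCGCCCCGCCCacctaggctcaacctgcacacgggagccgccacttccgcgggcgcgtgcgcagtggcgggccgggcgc

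The mRNAs of the cytoplasmic dicing step did not pass the test. DICER1 (chromosome 14, 95086228 to 95158010, minus strand, hg38, ENSG00000100697), which measures and cuts the hairpin, had 7.00, 6.59 and 7.51 FPKM in the control libraries and 7.16, 6.97 and 7.70 in the siGSE1 libraries. These values interleave, and the log2 fold change was 0.03 (SE 0.06, 95% interval -0.11 to 0.16, edgeR adjusted p = 0.814). TARBP2 (chromosome 12, 53500921 to 53506431, plus strand, hg38, ENSG00000139546), the double-stranded RNA-binding partner of DICER1, had 10.91, 10.15 and 11.28 FPKM in the control libraries and 9.40, 9.50 and 10.31 in the siGSE1 libraries. Only siGSE1 replicate 3 reached into the control range. Without control replicate 2, TARBP2 had a log2 fold change of -0.21 and an edgeR adjusted p of 0.0397, so 4 of the 10 genes changed in that set of libraries. Calls also rose over all genes there, to 3562 from 3167 in the main test.

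AGO4, an argonaute without known slicing activity, fell by 23.3%, the largest change of the 10. It lies on chromosome 1 (35808016 to 35857890, plus strand, hg38, ENSG00000134698). The control libraries had 1.64, 1.64 and 1.65 FPKM and the siGSE1 libraries 1.09, 1.33 and 1.41. The control values agreed closely with each other, and the siGSE1 values all lay below them and were spread more widely, with replicate 1 the lowest. The means were 1.64 ± 0.01 and 1.28 ± 0.17 FPKM (SD, n = 3 each), a change of -0.38 on the log2 scale (SE 0.12, adjusted p = 0.0378 by edgeR). A library held 142 to 253 AGO4 counts, so that counting error alone reaches 8.39% in the library with the fewest, siGSE1 replicate 1.

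The call of AGO4 held in 6 of 15 alternatives, and all 15 kept the direction. Its adjusted p was 0.0841 without control replicate 1, 0.0578 without control replicate 3, 0.166 without siGSE1 replicate 1 and 0.0815 without siGSE1 replicate 2. On log2(FPKM + 1), a scale that understates changes of low genes, the log2 fold change was -0.22. The 250 bases before the RefSeq start (chr1:35807766-35808015, plus strand) hold CACCC and its complement once each, in capitals, and no GC box.
AGO4: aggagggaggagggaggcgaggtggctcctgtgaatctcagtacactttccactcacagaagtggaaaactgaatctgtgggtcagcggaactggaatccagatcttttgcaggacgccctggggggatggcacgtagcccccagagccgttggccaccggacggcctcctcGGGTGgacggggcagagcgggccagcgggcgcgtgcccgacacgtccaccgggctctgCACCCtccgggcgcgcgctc

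AGO4 is the first of 3 argonaute genes that follow each other on the plus strand of chromosome 1 within 264 kb, with 11917 bases between AGO4 and AGO1 and 185 between AGO1 and AGO3. Its neighbours did not pass the test. AGO1 (35869808 to 35930532, ENSG00000092847) had 3.15, 2.80 and 3.13 FPKM in the control libraries and 2.84, 3.11 and 3.16 in the siGSE1 libraries, with a change of -0.02 on the log2 scale (SE 0.07, adjusted p = 0.901 by edgeR). AGO3 (35930718 to 36072500, ENSG00000126070), the least abundant of the 10, had 0.94, 0.80 and 0.84 FPKM in the control libraries and 0.75, 0.85 and 0.82 in the siGSE1 libraries. Its log2 fold change was -0.12 (SE 0.10, edgeR adjusted p = 0.464). For both genes the values of the groups overlap. The difference between the change of AGO4 and those of AGO1 and AGO3 was not tested. In GENCODE release 29, 0% of the 50-base windows in transcripts of any of the 4 argonaute genes occur in another argonaute gene. Reads of the stated length, 50 bases, from those transcripts would therefore not be split between them. The deposited spans of AGO1, AGO2 and AGO4 differ from that release, so the gene models used for counting were not those checked.

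AGO2 (chromosome 8, 140520156 to 140635633, minus strand, hg38, ENSG00000123908), the slicing argonaute, did not pass the test. It had 8.90, 8.22 and 10.95 FPKM in control libraries 1, 2 and 3 and 9.92, 9.59 and 10.12 in the siGSE1 libraries. Control replicate 3 was the highest of the 6, and the siGSE1 values lay between it and the other controls. The log2 fold change was 0.06 (SE 0.08, 95% interval -0.11 to 0.22, edgeR adjusted p = 0.663), and it was -0.03 without control replicate 2. TNRC6A (chromosome 16, 24610209 to 24827632, plus strand, hg38, ENSG00000090905), the effector that argonautes recruit, had 10.56, 10.04 and 11.20 FPKM in the control libraries and 11.04, 10.19 and 11.24 in the siGSE1 libraries. These values overlap throughout, with a log2 fold change of 0.01 (SE 0.06, 95% interval -0.12 to 0.13, edgeR adjusted p = 0.952).

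Shares and ratios within a library do not depend on how libraries are scaled, and are given as descriptions with no test. AGO2 made up 60.8%, 61.1% and 66.1% of the summed FPKM of the 4 argonautes in the control libraries and 67.9%, 64.4% and 65.2% in the siGSE1 libraries. AGO1 made up 18.9% to 21.5% over all 6 libraries, and AGO3 5.07% to 6.43%. The share of AGO4 was 11.2%, 12.2% and 9.96% in the control libraries and 7.47%, 8.94% and 9.09% in the siGSE1 libraries, so the groups did not overlap. This share is built on the AGO4 FPKM, which were already apart, and is no further support for the change of AGO4. The summed argonaute FPKM was 14.6, 13.5 and 16.6 in the control libraries and 14.6, 14.9 and 15.5 in the siGSE1 libraries, and these overlap.

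The pairs for these ratios were chosen after values were seen. The ratio of DROSHA to XPO5 was 0.76, 0.878 and 0.806 in the control libraries and 1.00, 1.04 and 1.10 in the siGSE1 libraries. The ratio of DICER1 to TARBP2 was 0.642, 0.649 and 0.666 in the control libraries and 0.762, 0.734 and 0.747 in the siGSE1 libraries. Neither ratio overlapped between the groups. For DROSHA to XPO5 this was bound to happen, since DROSHA was higher and XPO5 lower in every siGSE1 library. It is therefore no further support for either change. DICER1 and TARBP2 each missed the threshold, and a change of their ratio was not tested. How often ratios of other gene pairs were apart was not counted, while 36.1% of single genes tested were apart. The ratio of DROSHA to DGCR8, the subunits of the Microprocessor, did overlap, at 1.25, 1.70 and 1.28 against 1.58, 1.56 and 1.52. So did the ratio of DROSHA to DICER1, at 1.08, 1.26 and 1.07 against 1.28, 1.28 and 1.21. Among the GW182 genes, TNRC6A made up 77.3% to 78.9% of the summed FPKM in all 6 libraries, with TNRC6B at 13.6% to 16.4% and TNRC6C at 6.22% to 7.97%.

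**Figure D3:**
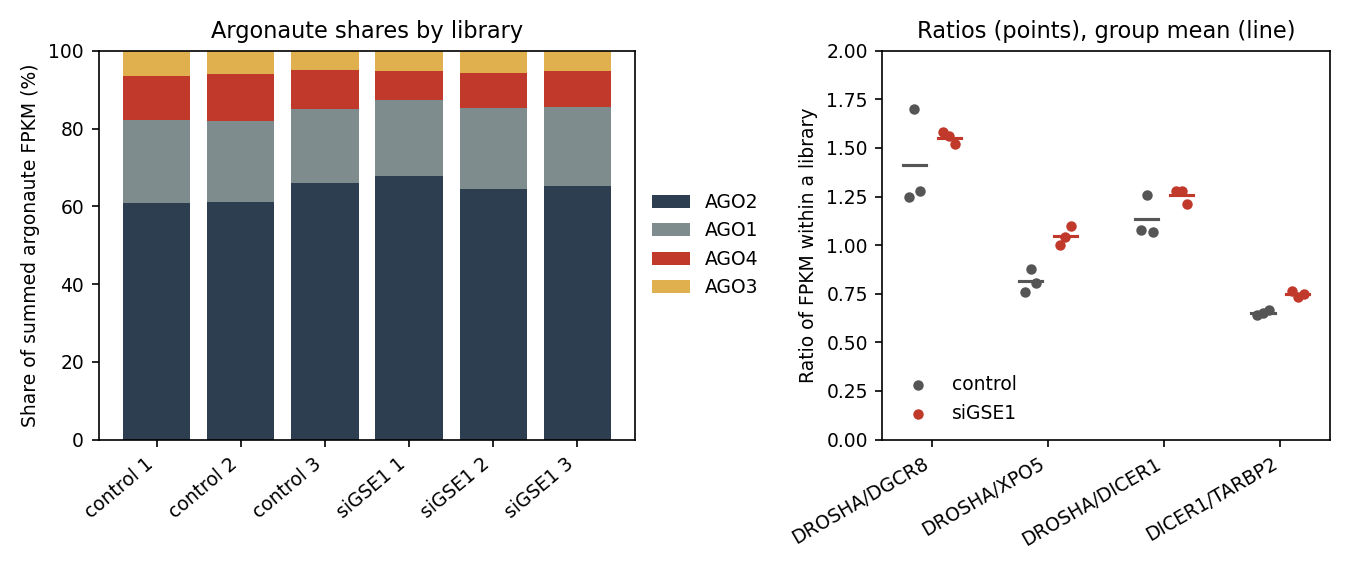
Left, stacked bars of the share (%) of each argonaute in the summed FPKM of the 4 in each library. Right, ratios of FPKM within a library (points) with the group mean (line). AGO2 is the tallest share in all 6 libraries at 60.8% to 67.9%. The DROSHA to XPO5 and DICER1 to TARBP2 points do not overlap between the groups, the first because each of its genes is already apart. The DROSHA to DGCR8 and DROSHA to DICER1 points do overlap.

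The plot of adjusted p under each alternative shows how close the 3 calls lay to the threshold. Under limma on log2(FPKM + 1), adjusted p was 0.0591 for DROSHA, 0.0930 for XPO5 and 0.0981 for AGO4. With DESeq2 it was 0.0900, 0.0349 and 0.0509. Leaving out control replicate 2, the library that stood apart, kept all 3 calls.

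**Figure D4:**
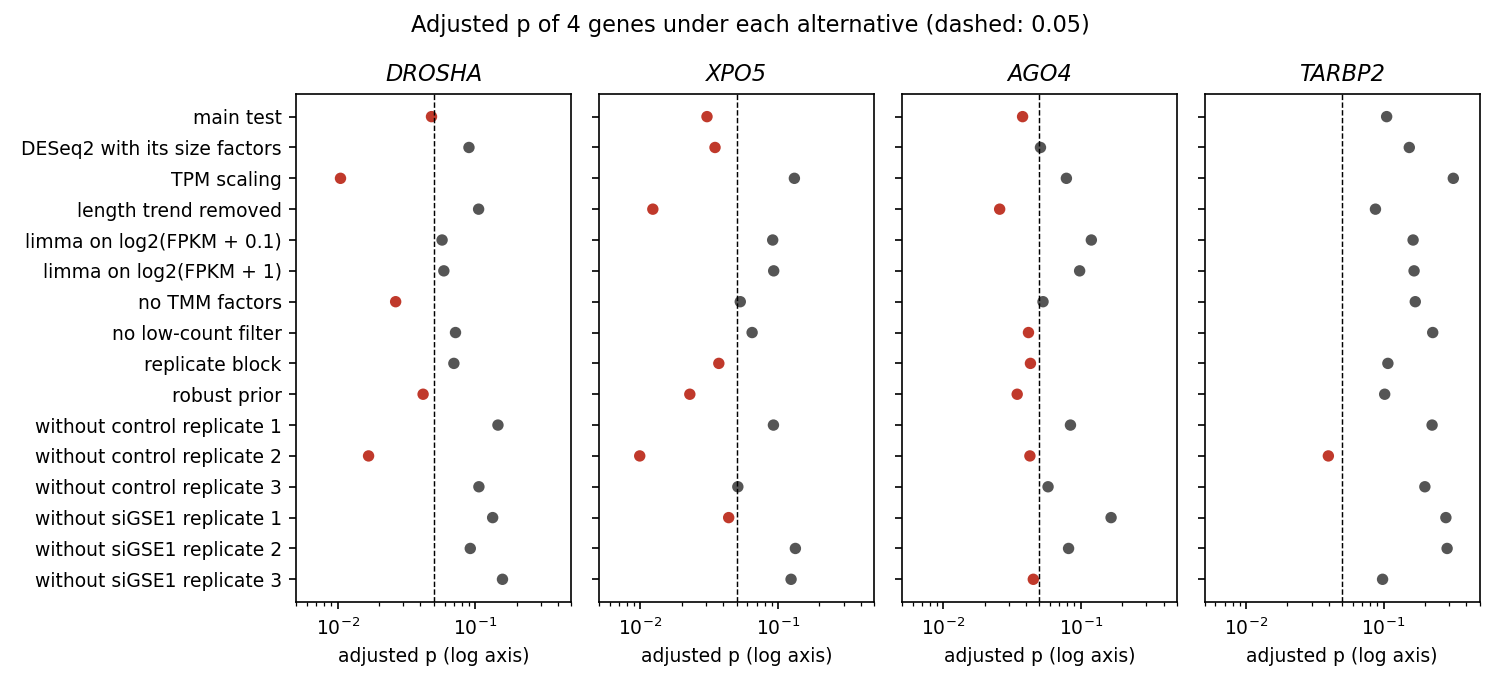
Adjusted p (horizontal log axis) of DROSHA, XPO5, AGO4 and TARBP2 in the main test and the 15 alternatives, red where under the dashed threshold of 0.05. DROSHA ran from 0.0105 to 0.158, XPO5 from 0.00989 to 0.134, AGO4 from 0.0257 to 0.166 and TARBP2 from 0.0397 to 0.321.

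The genes nearest in pattern to the largest rise and the largest fall were sought among genes of at least 5 FPKM. The measure was the root mean square difference of log2(FPKM + 1) values, each set relative to its control mean, over the 6 libraries. Among the 3 genes nearest to DROSHA, out of 6826 compared, were DNAJB12 (0.0174), an endoplasmic reticulum cochaperone gene, and WIPI2 (0.0209), an autophagy gene. AGO4 was nearest to NUMBL (0.0182), RPAP3 (0.0229), an RNA polymerase assembly factor gene, and FANCL (0.0255), a ubiquitin ligase gene of DNA repair, out of 6827. FANCL itself missed the threshold (edgeR adjusted p = 0.112). The likeness to AGO4 rests on this scale, where its change shrinks from -0.38 to -0.22, while the counts gave -0.26 for NUMBL, -0.26 for RPAP3 and -0.24 for FANCL.

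The mRNAs of proteins that work beside these 10 were followed in 10 lists of 158 genes, of which 142 were tested. Of these, 16 rose, 16 fell and 110 did not pass, so that 22.5% changed where 19.9% of all genes did. With TPM scaling 23 rose and 8 fell. The changed share was 40% for the deadenylase list, 33.3% for the decapping list and 32.1% for microRNA host genes, and 0% to 18.2% for the other lists. No list was tested against the other genes.

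**Figure D5:**
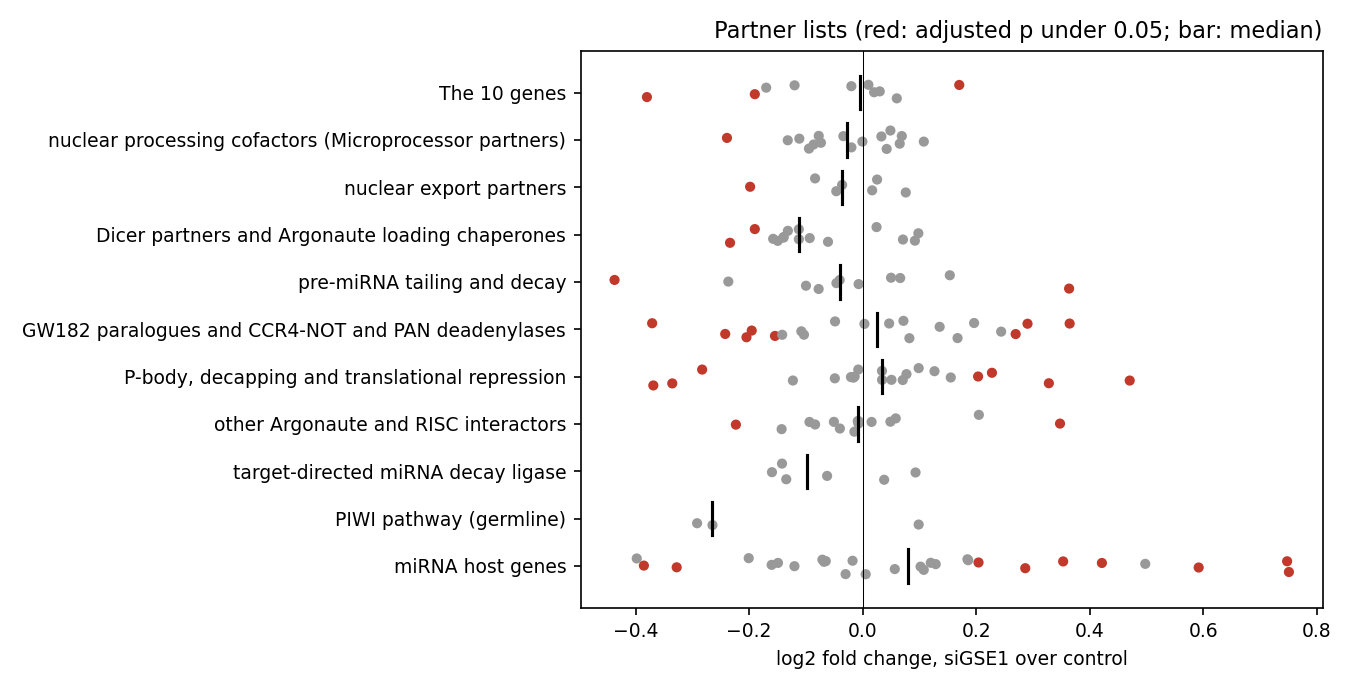
Log2 fold change (horizontal axis, siGSE1 over control) of each tested gene of the 10 genes and the 10 partner lists. Points are genes, red where the adjusted p was under 0.05, spread vertically only for legibility, and black bars are medians. Red points lie on both sides of 0 in the deadenylase, decapping and host gene lists, and the list medians run from -0.26 to 0.08.

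In the nucleus, cofactors of the Microprocessor had 0 of 16 genes higher and 1 lower, with a median log2 fold change of -0.03 (0.03 with TPM scaling). The gene that fell was NCBP2, a subunit of the cap-binding complex, from 10.7 ± 0.16 to 9.20 ± 0.29 FPKM (SD, n = 3 each, edgeR adjusted p = 0.0115). It missed the threshold without siGSE1 replicate 3 (0.0603) and with TPM scaling (0.0504). In both, 0 genes of the list fell, and with TPM scaling 1 rose. Among 7 export partners, 0 rose and 1 fell, RCC1, the exchange factor that charges RAN with GTP, at a log2 fold change of -0.20 (edgeR adjusted p = 0.0365). Leaving out any library other than control replicate 3 ended that call, with adjusted p of 0.0638 to 0.187, as did both limma analyses, TPM scaling and no TMM factors.

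Partners of DICER1 and the chaperones that open argonautes for loading had 0 of 15 genes higher and 2 lower. Their median log2 fold change was -0.11, below 0 in all 15 alternatives (-0.14 to -0.05). The medians of the lists for target-directed microRNA decay and for the PIWI branch, described below, were also below 0 in all 15. HSP90AB1, the constitutive HSP90, had 603, 570 and 517 FPKM in the control libraries and 491, 483 and 490 in the siGSE1 libraries. All 3 siGSE1 values were lower, a log2 fold change of -0.23 (edgeR adjusted p = 0.00928, and 0.0574 without siGSE1 replicate 2). Both limma analyses also lost this call (0.0550 and 0.0561). STIP1, which links HSP70 to HSP90, fell by 0.19 on the log2 scale (edgeR adjusted p = 0.0175). Its call was lost without control replicate 1 (0.0636) and without siGSE1 replicate 1, 2 or 3 (0.0864, 0.0744 and 0.0649), and with TPM scaling (0.0668). Over the alternatives 0 to 1 genes of this list rose and 0 to 5 fell, 5 of them without control replicate 3 and 0 without siGSE1 replicate 2.

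Of 11 tested genes that tail or degrade pre-microRNAs, 1 rose and 1 fell. ZC3H12A, an endonuclease known to cut pre-microRNA loops and cytokine mRNAs, had 37.7, 42.7 and 40.6 FPKM in the control libraries and 53.2, 50.7 and 54.4 in the siGSE1 libraries. It rose 1.29-fold (log2 fold change 0.36, SE 0.06, edgeR adjusted p = 3.23e-04) and kept its call in all 15 alternatives. LIN28B, which blocks let-7 maturation, fell from 1.51 ± 0.20 to 1.13 ± 0.07 FPKM (SD, n = 3 each, edgeR adjusted p = 0.0419). Leaving out any library but control replicate 2 ended that call, with adjusted p of 0.0546 to 0.133, as did DESeq2, both limma analyses, TPM scaling and no TMM factors. LIN28A, the other member of its family, had 0 counts in every library.

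Of 20 genes of the GW182 paralogues and the deadenylases, 3 rose, 5 fell and 12 did not pass, with a median of 0.02 that turned negative without control replicate 2 and with the length trend removed. TNKS1BP1, which binds the CCR4-NOT complex, rose from 19.8 ± 1.66 to 25.9 ± 0.42 FPKM (log2 fold change 0.36, edgeR adjusted p = 3.84e-04). CNOT11, a CCR4-NOT subunit, fell from 21.5 ± 0.74 to 16.9 ± 0.75 FPKM (-0.37, edgeR adjusted p = 7.83e-04). Both kept their calls in all 15 alternatives. CNOT1, the scaffold of CCR4-NOT, fell by 0.24 on the log2 scale (edgeR adjusted p = 0.00607, and 0.0558 without siGSE1 replicate 2). PAN2, the nuclease of the other deadenylase complex, rose by 0.27 (edgeR adjusted p = 0.0125, and 0.0867 without siGSE1 replicate 1). The numbers depended on the libraries, with 1 higher and 2 lower without siGSE1 replicate 1, 2 and 1 without siGSE1 replicate 2, 2 and 2 without siGSE1 replicate 3 and 3 and 3 without control replicate 1. With TPM scaling 6 rose and 2 fell.

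Of 21 genes of decapping and translational repression, 4 rose, 3 fell and 14 did not pass, with a median of 0.03 that turned negative in the same 2 alternatives. PATL1, a P-body scaffold, rose from 23.5 ± 0.70 to 28.0 ± 0.42 FPKM (SD, n = 3 each, edgeR adjusted p = 0.0069). LSM14A and LSM14B, paralogous P-body proteins, changed in opposite directions. LSM14A rose from 42.6 ± 1.38 to 49.8 ± 0.99 FPKM (edgeR adjusted p = 0.00824, and 0.0543 without siGSE1 replicate 2) and LSM14B fell from 13.8 ± 0.32 to 11.5 ± 0.45 (edgeR adjusted p = 0.00611). LIMD1, which binds argonautes, fell by 0.34 on the log2 scale (edgeR adjusted p = 0.00238, and 0.0511 under limma on log2(FPKM + 1)). Of the list, 2 genes fell without siGSE1 replicate 2 and under limma on log2(FPKM + 0.1), and 1 fell under limma on log2(FPKM + 1).

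Among 15 tested interactors of argonautes and their targets, 1 rose and 1 fell. HELZ, a helicase that binds the CCR4-NOT complex, rose from 2.94 ± 0.12 to 3.81 ± 0.12 FPKM (SD, n = 3 each, edgeR adjusted p = 0.00119). FMR1, the fragile X RNA-binding protein gene, fell by 0.22 on the log2 scale (edgeR adjusted p = 0.0273). Its call was lost without control replicate 1 (0.0843) and without siGSE1 replicate 1, 2 or 3 (0.0504, 0.0981 and 0.114), under both limma analyses, with TPM scaling and when low counts were kept. Without control replicate 3, 2 genes of this list fell.

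In edgeR's test 0 of 6 genes of the ligase of target-directed microRNA decay passed, and 2 had an unadjusted p under 0.05. The most abundant were the elongin genes ELOB, at 115 ± 2.87 and 106 ± 3.99 FPKM (SD, n = 3 each, edgeR adjusted p = 0.0789), and ELOC, at 12.7 ± 0.84 and 11.6 ± 0.62 (adjusted p = 0.119). Both passed without control replicate 3, at 0.0470 and 0.0483. In the PIWI branch, which works in the germline, the 4 PIWIL genes had at most 0.19 FPKM in any library. Only 3 of its 12 genes were tested with edgeR and 0 passed, with 1 at an unadjusted p under 0.05. The most abundant were TDRKH, at 3.57 ± 0.35 and 3.01 ± 0.15 FPKM (SD, n = 3 each, edgeR adjusted p = 0.0757, and 0.0344 without control replicate 2), and PLD6, at 3.14 ± 0.75 and 2.58 ± 0.39 (adjusted p = 0.276).

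Host transcripts of microRNAs, the substrates of this machinery or the genes that carry them in introns, numbered 28 tested, of which 7 rose, 2 fell and 19 missed the threshold. The median was 0.08 and turned negative without control replicate 3 or siGSE1 replicate 3. Without siGSE1 replicate 1, 4 rose, and with a robust prior or the length trend removed 4 fell. LPP, an adhesion protein gene and host of MIR28, had 2.72, 3.59 and 3.98 FPKM in the control libraries and 5.75, 6.18 and 5.61 in the siGSE1 libraries. The groups were well apart, by 0.75 on the log2 scale (SE 0.09, adjusted p = 3.68e-05 by edgeR). MIR31HG rose by 0.75 on the log2 scale, from 5.83 ± 0.99 to 10.0 ± 0.48 FPKM (SD, n = 3 each, edgeR adjusted p = 1.75e-04). MIR22HG rose from 10.6 ± 0.78 to 14.5 ± 0.83 (0.42, edgeR adjusted p = 0.00102). NFYC, a subunit of the transcription factor NF-Y and host of MIR30E and MIR30C1, fell from 9.01 ± 0.56 to 7.01 ± 0.24 (-0.39, edgeR adjusted p = 7.52e-04). These 4 calls held in all 15 alternatives.

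Mature microRNAs were not measured in these libraries. Those that the RefSeq table (GRCh38.p14) lists within the 4 host genes on the same strand are shown with their seeds in capitals, because their genes lie within transcripts that changed. MIR30E and MIR30C1 share the seed GUAAACA in their 5p products, while no other seed shown is shared. In the order of the host genes LPP (chr3:188688834-188688855), MIR31HG (chr9:21512158-21512178), MIR22HG (chr17:1713914-1713973) and NFYC (chr1:40754371-40757360) they are as follows.
hsa-miR-28-3p: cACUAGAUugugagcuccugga
hsa-miR-31-5p: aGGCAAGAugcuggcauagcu
hsa-miR-22-3p: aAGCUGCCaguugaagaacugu
hsa-miR-22-5p: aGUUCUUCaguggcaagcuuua
hsa-miR-30e-5p: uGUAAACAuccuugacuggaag
hsa-miR-30c-5p: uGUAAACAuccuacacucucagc
hsa-miR-30e-3p: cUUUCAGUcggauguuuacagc
hsa-miR-30c-1-3p: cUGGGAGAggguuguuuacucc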

How the data were processed

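RNA from 6 libraries of A549 cells (3 siGSE1, 3 control) was made with the TruSeq RNA Sample Preparation Kit, per the labels' protocols. The authors deposited read counts and FPKM for 60612 Ensembl genes. The deposited FPKM can be recomputed from counts, exonic lengths and summed counts within 0.0051. Per the submitters' processing notes, the tools were HISAT2, HTSeq, StringTie 1.3.3b and edgeR on hg38, with no roles given, whereas the series text names STAR, RPKM and DESeq2. The sources used here do not give the annotation release.

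Counts were tested with edgeR 4.0.16 (R 4.3.3), TMM factors, filterByExpr (minimum count 10, total 15) and the group as the only term. Unless another analysis is named, fold and percent changes come from this model. FPKM carry no TMM factors, so ratios of the FPKM means differ somewhat from these changes. Standard errors are the absolute log2 fold change over the square root of F, and intervals use the moderated degrees of freedom. The 15 alternatives were DESeq2 1.42.0, limma 3.58.1 on log2(FPKM + 1) and log2(FPKM + 0.1), no TMM factors, no filter, a robust prior, TPM scaling, removal of a length trend, a replicate block and each library left out. The code was checked on simulated data. All 10 genes are named, then from each partner list up to 4 called genes of smallest adjusted p or, with none called, the 2 most abundant. Members and lists were chosen with earlier results of these data known. The table's gene positions matched GENCODE release 29 for 6 of the 10 genes and differed for AGO1, AGO2, AGO4 and XPO5. Counting intervals cover counting error only. For 1 gene near DROSHA in pattern, the result is not reported here.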

Additional observations from a re-analysis of the deposited data

How the results depend on the processing

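The number of the 10 genes called (3, 1 higher and 2 lower) was 1 (0 higher, 1 lower) with DESeq2 and with no low-count filter, 1 (1 higher, 0 lower) with TPM scaling and with no TMM factors, and 0 (0 and 0) under limma with either pseudocount, 0.1 or 1. With the length trend removed 0 were higher and 2 lower, and the robust prior kept all 3. Leaving out 1 library gave 0 to 4 called, 0 to 1 higher and 0 to 3 lower. With the replicate block 2 were called, 0 higher and 2 lower (DROSHA adjusted p = 0.0699), and 3097 of all genes. Deviations of same-numbered libraries correlated at -0.0185 to 0.02, and those of libraries with different numbers at -0.0406 to 0.0398. These values show no pairing by number and cannot exclude one, and the labels do not say whether the numbers mark shared batches. Partner genes called (32, 16 in each direction) were 21 under limma with a pseudocount of 1, with 9 lower, 10 lower with 0.1 and 8 lower with TPM scaling, and ran from 19 to 35 (10 to 16 higher, 6 to 20 lower) when 1 library was left out. Over all genes 1437 were lower, 887 and 909 under limma with a pseudocount of 1 and 0.1 and 929 with TPM scaling, where 2544 were higher. Leaving out 1 library gave 1863 to 3562 changed, 1049 to 1914 higher and 814 to 1648 lower.

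Signs turned only for genes of the 10 that missed the threshold. When 1 library was left out, AGO1 ran from -0.0737 to 0.0251, AGO2 from -0.0266 to 0.1637, DGCR8 from -0.0903 to 0.0705, DICER1 from -0.0191 to 0.0591 and TNRC6A from -0.0311 to 0.0518. AGO1 became 0.0051 and 0.0039 under limma with 0.1 and 1, 0.0076 with no TMM factors and 0.045 with TPM scaling. With the length trend removed DGCR8, DICER1 and TNRC6A became -0.0128, -0.0166 and -0.036. Of 20 called partner genes named, 10 kept their call in all 15 alternatives and none changed direction. The cause of these shifts was not tested.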
